A study of Mus musculus with 48 samples.

Results

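The antiviral interferon-stimulated genes described here are 39 genes given by symbol: the ISG15 system, the OAS family, the Mx GTPases, sensors of foreign nucleic acid, the HIN-200 family, antiviral effectors, and genes of interferon signalling. All 39 have an identifier among the 49315 genes of the count table. Ifi44l had no count in any of the 48 libraries, and the other 38 passed the filter on low counts and were tested. Mnda carries the name Ifi211 and Ddx58 the name Rigi in the authors' second table. The members were then divided by whether R848 raised them, lowered them or left them below the threshold in wild-type cells.

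Bone marrow-derived macrophages of 16 mice, 4 per genotype with 2 of each sex, were profiled by polyA RNA sequencing. The genotypes were LynAKO (LynA isoform knockout), LynBKO (LynB isoform knockout), LynKO (total knockout of Lyn) and wild type (WT). Lyn is a Src-family tyrosine kinase. After 7 days in medium with M-CSF and a night of rest without it, cells of each mouse were given LPS (2 ng/mL, which activates Toll-like receptor 4), R848 (resiquimod, 20 ng/mL, which activates mouse Toll-like receptor 7) or M-CSF-free medium alone (NT), each for 2 h. This gave 12 groups of 4 libraries: LynAKO, LynBKO, LynKO and WT, each with LPS, with R848 and NT. The sources used here do not give the strain, the age of the mice or the alleles.

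Type I interferon binds a receptor that signals through the kinases JAK1 and TYK2 to a complex that holds STAT2 and IRF9 and binds the interferon-stimulated response element (ISRE) in the promoters of antiviral genes. Toll-like receptor 4 signals through both the MyD88 and the TRIF adaptor, and TRIF leads through TBK1 to IRF3 and to transcription of interferon beta. Toll-like receptor 7 signals through MyD88, and its best known interferon producers are plasmacytoid dendritic cells rather than macrophages.

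Total counts per library were 14974764 to 23321447, and levels are given as CPM (counts scaled to a common library size, with TMM factors). Lyn without ligand stood at 118 ± 11.5 CPM in LynAKO, 125 ± 6.38 in LynBKO and 67.6 ± 4.15 in LynKO, against 177 ± 10.4 CPM in WT (SD, n = 4 each). Of 7 macrophage markers, Lyz2 had 13042 to 35954 CPM over all libraries, Csf1r 3055 to 4821, Adgre1 1203 to 2233 and Cd68 832 to 1266 CPM. Itgam had 185 to 299 CPM, Fcgr1 119 to 406 and Mertk, the lowest, 7.56 to 68.9 CPM. Of 5 plasmacytoid dendritic cell markers, Siglech and Klk1 stayed at or below 1.03 and 0.135 CPM and Tcf4 had 76.8 to 124 CPM. Summed, the 5 gave 81.1 to 114 CPM in the LPS libraries and 78.3 to 92.6 in the R848 libraries, against 91.6 to 124 CPM in the NT libraries. The 5 conventional dendritic cell markers summed to 4.79 to 11.9 CPM with LPS and 5.02 to 13.1 with R848, against 0.402 to 1.54 CPM in NT. Of these, Xcr1 reached 11.6 CPM, and Flt3, Zbtb46, Ccr7 and Cd209a stayed at or below 1.49, 1.36, 1.09 and 0.356 CPM. The 6 neutrophil markers summed to 7.22 to 21.5 CPM with LPS and 7.55 to 25.7 with R848, against 3.12 to 14.5 CPM in NT. Over all libraries, Ngp reached 10.98, S100a8 10.83 and S100a9 7.92 CPM. Camp, Retnlg and Ly6g stayed at or below 1.255, 0.3781 and 0.279 CPM. The part of other cells in the results was not tested. The p-values measure the spread between these libraries. The libraries LynBKO NT 4 and LynKO NT 4, labelled female, held Xist at 121 and 232 CPM. They also held Y-linked transcripts at 133 and 70.7 CPM, so several results that use them are also given without them. The sex labels and sex transcripts of LynBKO NT 2 and NT 3 are exchanged relative to the LPS and R848 libraries with the same numbers.

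Several members lie side by side in the genome (GRCm38). The 5 HIN-200 genes span chromosome 1 from 173630917 to 174031810: Ifi209, Ifi204, Mnda, Ifi203 and Ifi205 in that order. Oas2, Oas3, Oas1g and Oas1a lie on chromosome 5 between 120730333 and 120907521, with Oasl2 and Oasl1 also on that chromosome. Rsad2 and Cmpk2 are neighbours on chromosome 12 with opposite strands, Mx1 and Mx2 lie on chromosome 16, and Slfn5, Slfn8 and Slfn1 on chromosome 11. The HIN-200 genes, Oas1a with Oas1g, and the Slfn genes are families of close paralogs, and the sources used here do not give how reads shared between copies were counted, so the split of counts within these families is uncertain.

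Promoter sequence was available from RefSeq (GRCm38.p6, 250 bases before to 50 after the start) for 29 of the 39 members. An ISRE-type motif (GAAA, any 2 bases, then GAAA again), searched on both strands, occurred in the promoters of 17 of these 29 genes (58.6%), against 3.99% of all 27025 genes with a promoter in the table. A kB-type motif (GGG, any 3 bases, then TTCC), also on both strands, occurred in 5 of 29 (17.2%), against 6.31% of all genes. The sequences below are shown because they hold motifs of members from each class with R848 in WT. These are Isg15, Oas1a and Rsad2 (below the threshold), Oas1g (lowered) and Ifi205, Mnda and Ifi209 (raised). Oas1a and Oas1g lie on either side of the threshold in WT, with log2 fold changes of -0.17 and -0.40. Neither was called in a knockout, and a difference between these genes was not tested. Each runs 5′ to 3′ on the strand of its gene from 150 bases before the start to the base before it (for Ifi205 to 60 bases before it). Capitals mark motif matches, overlapping matches run together.
Isg15: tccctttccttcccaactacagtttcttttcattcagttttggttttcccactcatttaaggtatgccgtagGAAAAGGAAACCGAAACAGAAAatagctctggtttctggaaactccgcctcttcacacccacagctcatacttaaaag
Oas1a: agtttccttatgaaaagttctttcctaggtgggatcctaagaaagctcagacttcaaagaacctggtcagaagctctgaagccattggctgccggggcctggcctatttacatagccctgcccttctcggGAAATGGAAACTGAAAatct
Rsad2: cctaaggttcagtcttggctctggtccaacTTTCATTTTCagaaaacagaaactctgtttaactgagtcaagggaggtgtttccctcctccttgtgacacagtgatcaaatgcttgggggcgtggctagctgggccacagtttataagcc
Oas1g: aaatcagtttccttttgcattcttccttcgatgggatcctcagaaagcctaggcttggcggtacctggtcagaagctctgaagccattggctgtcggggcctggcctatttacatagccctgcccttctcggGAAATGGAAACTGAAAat
Ifi205: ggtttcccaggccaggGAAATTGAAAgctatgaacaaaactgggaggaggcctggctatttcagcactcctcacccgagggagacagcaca
Mnda: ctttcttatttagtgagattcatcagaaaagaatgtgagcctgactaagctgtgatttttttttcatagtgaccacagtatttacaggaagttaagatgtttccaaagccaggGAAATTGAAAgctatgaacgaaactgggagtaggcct
Ifi209: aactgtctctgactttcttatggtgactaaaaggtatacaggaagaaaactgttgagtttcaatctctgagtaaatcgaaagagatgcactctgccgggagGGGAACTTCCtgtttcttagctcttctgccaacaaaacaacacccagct

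These windows lie at chr4:156200819-156200968 on the minus strand (Isg15), chr5:120907526-120907675 on the minus strand (Oas1a), chr12:26456453-26456602 on the minus strand (Rsad2), chr5:120887614-120887763 on the minus strand (Oas1g), chr1:174031815-174031905 on the minus strand (Ifi205), chr1:173913047-173913196 on the minus strand (Mnda) and chr1:173630709-173630858 on the plus strand (Ifi209). Isg15 held 3 overlapping ISRE-type matches, and Oas1a and Oas1g 2 overlapping matches each within a run of 56 identical bases that both windows share. Rsad2 held 1 match on the opposite strand. Ifi205 and Mnda shared a run of 25 identical bases that includes their ISRE-type match, and Ifi209 held a kB-type match and no ISRE-type match in this window. By class, the ISRE-type motif was in 7 of 8 genes raised by R848 in WT, in 2 of 2 lowered and in 8 of 18 below the threshold, and the kB-type motif in 1 of 8, 0 of 2 and 4 of 18. A match is a description of letters, and binding was not measured.

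LPS raised the antiviral genes as a whole, in every genotype. All 38 members tested were higher with LPS than NT in LynAKO, LynBKO, LynKO and WT (edgeR quasi-likelihood test, adjusted p under 0.05 over 13986 genes), where 30.4%, 33.9%, 31.0% and 31.5% of all genes were higher, in the same order. Of the 38, 36 were also at least 2-fold higher in each genotype, against 14.8%, 14.9%, 14.0% and 14.9% of all genes. The median log2 fold change of the members was 2.81, 2.55, 2.62 and 2.78, against -0.04, -0.03, -0.03 and -0.03 over all genes tested. The libraries of the 2 groups did not overlap for 38 members in LynAKO, LynBKO and WT and for 37 in LynKO (all but Oas3), against 55.5%, 62.1%, 56.7% and 58.7% of all genes. The 2 members under 2-fold were Bst2 and Oas3 in each genotype. In bulk RNA, a change in the number of cells that express a gene and a change in RNA per cell cannot be told apart.

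**Figure D1:**
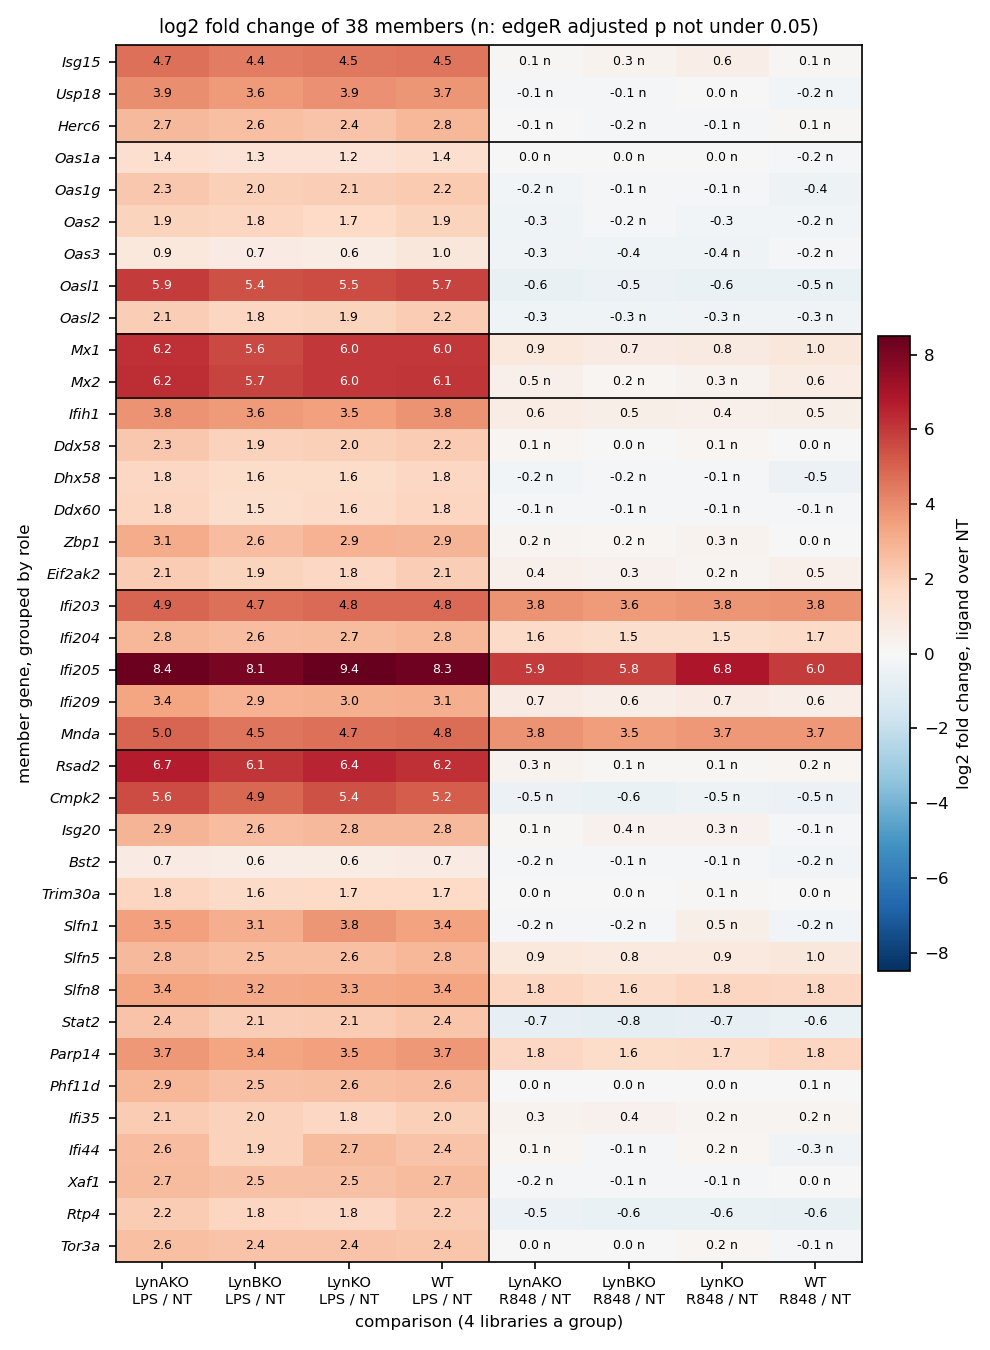
Heat map of the log2 fold change (colour and number) of 38 member genes, in rows grouped by role, for LPS over NT (left 4 columns) and R848 over NT (right 4 columns) in LynAKO, LynBKO, LynKO and WT, with n marking an edgeR adjusted p not under 0.05. The left columns are positive throughout, and the right columns hold both signs, with the largest values in Ifi205, Ifi203 and Mnda and negative values for Stat2 and Rtp4 in each genotype.

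In the ISG15 system, Isg15 (ENSMUSG00000035692, chromosome 4, 156199424 to 156200818, minus strand) encodes the ubiquitin-like protein that is joined to other proteins after interferon. It had 448, 309, 296 and 341 CPM in the 4 WT LPS libraries, against 20.6, 18.6, 8.59 and 13.1 CPM in the 4 WT NT libraries, so all LPS libraries were far above all NT libraries. Its log2 fold change was 4.53 ± 0.24 (SE; edgeR adjusted p = 1.10e-11) in WT and 4.67, 4.36 and 4.45 in LynAKO, LynBKO and LynKO. Usp18, the protease that removes ISG15 and dampens the interferon receptor, had 246, 191, 171 and 207 CPM with LPS, against 21.5, 17.5, 7.903 and 15.2 CPM in WT NT (3.73 ± 0.22; edgeR adjusted p = 5.62e-11). Herc6, the main ISG15 ligase of mouse, averaged 138 ± 10.5 CPM with LPS and 19.5 ± 3.59 CPM in NT (SD, n = 4 each).

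The OAS enzymes make 2′,5′-oligoadenylates that activate RNase L. Oasl1, an OAS-like gene without that activity, rose most: 609.8, 417, 363 and 489 CPM in WT with LPS, against 10.7, 14.4, 4.12 and 6.504 CPM in WT NT (5.74 ± 0.29 on the log2 scale; edgeR adjusted p = 5.90e-12). The other 5 rose far less, from the log2 fold change of 0.96 of Oas3 to the 2.24 of Oas1g, which had 89.99, 71.02, 73.8 and 88.6 CPM with LPS, against 20.4, 18.8, 13.1 and 16.7 CPM in NT. Their starting levels were higher: per kilobase of exon, Oas1a stood at 31.6 CPM in WT NT and Oasl1 at 3.43 CPM.

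The Mx GTPases, which bind viral nucleoproteins, had 542, 593, 483 and 722 CPM (Mx1) with LPS, against 10.6, 13.6, 5.803 and 7.600 CPM in WT NT. Mx2 had 255, 241, 229.9 and 324 CPM with LPS, against 4.09, 5.23, 2.596 and 3.800 CPM in WT NT. The log2 fold changes of both were alike, 5.98 ± 0.25 and 6.08 ± 0.23 (edgeR adjusted p = 3.95e-13 and 1.04e-13).

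Among the nucleic acid sensors, Ifih1 (MDA5, a sensor of long double-stranded RNA) had 594, 588, 632 and 598 CPM in WT with LPS, against 49.6, 44.8, 38.9 and 41.9 CPM in WT NT. Its log2 fold change of 3.80 ± 0.09 exceeded the 2.15 ± 0.12 of Ddx58 (RIG-I) and the 1.78 ± 0.14 of Dhx58 (LGP2), its 2 relatives. Zbp1, a sensor of Z-form nucleic acid, had 144, 107, 86.4 and 99.1 CPM with LPS, against 21.2, 15.9, 8.17 and 13.8 CPM in NT (2.90 ± 0.24). The kinase PKR (Eif2ak2), which halts translation on double-stranded RNA, rose by 2.08 ± 0.08 and the helicase gene Ddx60 by 1.81 ± 0.15 on the log2 scale, with edgeR adjusted p of 3.35e-13 and 6.70e-09.

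The HIN-200 family, whose proteins bind DNA, held the member with the largest change. Ifi205 (ENSMUSG00000054203, chromosome 1, 174011998 to 174031810, minus strand) had 163, 155, 159 and 147 CPM in WT with LPS, against 0.279, 0.851, 0.191 and 0.658 CPM in WT NT and no overlap. Its log2 fold change was 8.28 ± 0.26 in WT (edgeR adjusted p = 9.94e-15) and 8.36, 8.09 and 9.37 in LynAKO, LynBKO and LynKO. Ifi203 had 762, 879, 928 and 923 CPM with LPS, against 37.8, 36.9, 19.4 and 31.4 CPM in WT NT. Mnda had 732, 719, 709 and 674 CPM with LPS, against 33.8, 30.4, 17.2 and 24.2 CPM in WT NT, again with no overlap. Ifi204 and Ifi209 rose by 2.82 ± 0.11 and 3.09 ± 0.17 on the log2 scale.

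Of the antiviral effectors, Rsad2 (viperin, which makes a chain-terminating nucleotide) had 1577, 1474, 1252 and 1619 CPM in WT with LPS, against 27.4, 27.1, 11.5 and 14.9 CPM in WT NT (6.21 ± 0.31; edgeR adjusted p = 4.55e-12). Its neighbour Cmpk2, a mitochondrial nucleotide kinase, had 874, 705, 575 and 733 CPM with LPS, against 27.4, 26.1, 13.4 and 14.6 CPM in WT NT (5.16 ± 0.23). Slfn1, Slfn8 and Slfn5, of the Schlafen family, rose by 3.39 ± 0.32, 3.38 ± 0.12 and 2.81 ± 0.11, and the exonuclease gene Isg20 by 2.76 ± 0.20. Bst2 (tetherin, which holds budding virus at the cell surface) changed least: 324, 225, 182 and 254 CPM with LPS, against 174, 172, 109 and 160.3 CPM in NT (0.69 ± 0.19; edgeR adjusted p = 0.00369). It was also the member with the highest level per kilobase of exon in WT NT, 171 CPM, ahead of Rtp4 at 47.6 CPM. In WT with LPS the order began with Isg15 at 461, Mnda at 397 and Rsad2 at 341 CPM per kilobase.

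Among the remaining 8 members tested, Parp14, a mono-ADP-ribosyltransferase, had 1887, 1783, 1724 and 1570.3 CPM in WT with LPS, against 155, 154, 115 and 118 CPM in WT NT (3.70 ± 0.12; edgeR adjusted p = 1.10e-14). Stat2, a transcription factor of interferon signalling, had 477, 369.6, 345 and 390.5 CPM with LPS, against 89.1, 87.3, 55.6 and 72.9 CPM in NT (2.39 ± 0.14). Xaf1, Phf11d, Ifi44, Tor3a, Rtp4 and Ifi35 rose by 2.66, 2.64, 2.41, 2.38, 2.17 and 2.04 on the log2 scale.

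**Figure D2:**
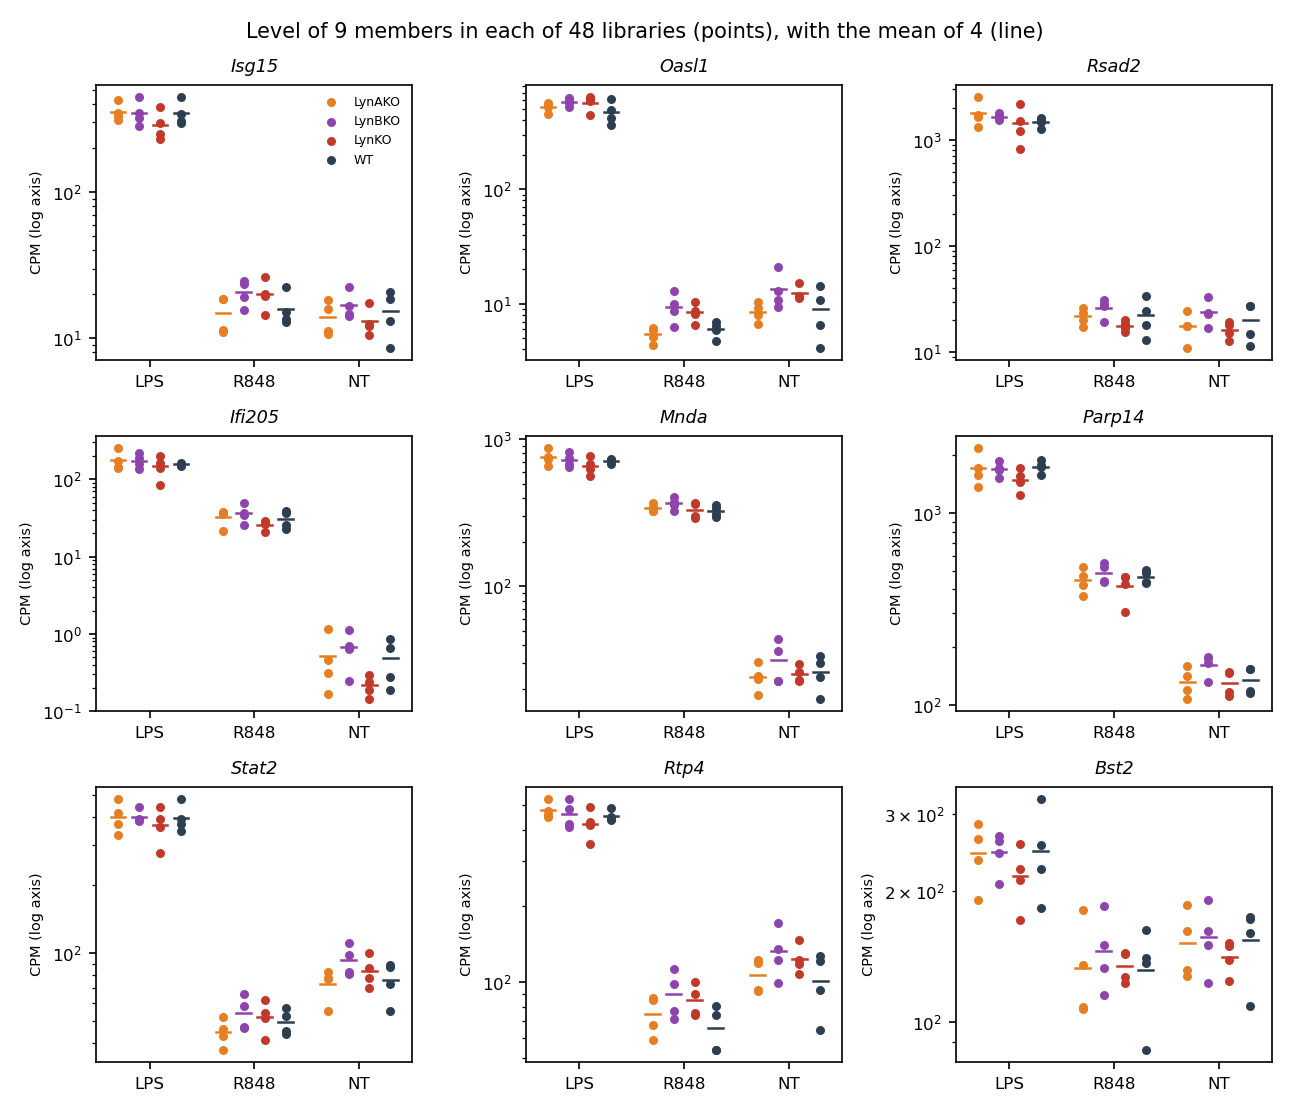
CPM (log axis) of 9 members in each of the 48 libraries (points) with the mean of each group of 4 (line), by treatment (LPS, R848, NT) and genotype (colour). All 9 are highest with LPS, and Ifi205, Mnda and Parp14 are also above NT with R848. The means of Stat2 and Rtp4 with R848 are below those of NT in each genotype, with overlapping libraries in WT and, for Rtp4, in LynBKO. Oasl1 with R848 is below the NT libraries in LynAKO and LynKO and overlaps them in LynBKO and WT. Isg15, Rsad2 and Bst2 with R848 lie among or near the NT values.

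R848 moved far fewer members. Against NT, 12 members were higher and 6 lower in LynAKO, 12 and 5 in LynBKO, 11 and 4 in LynKO, and 12 and 4 in WT (edgeR adjusted p under 0.05). Over all genes, 29.0%, 31.3%, 28.4% and 30.0% were higher and 26.9%, 32.2%, 27.0% and 26.7% lower, so the share of members higher (12 of 38 in WT) is near that of all genes. The member median was 0.07, -0.01, 0.16 and -0.00 on the log2 scale, against -0.04, -0.05, -0.02 and -0.03 over all genes. Only 6 members were at least 2-fold higher, and they were the same 6 genes in each genotype: Ifi203, Ifi204, Ifi205, Mnda, Slfn8 and Parp14. Over all genes, 12.0%, 12.0%, 10.8% and 12.3% met this rule.

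The division of the members rests on WT, so the WT values of the 3 classes are a description. Raised in WT were all 5 HIN-200 genes, both Mx genes, Slfn5, Slfn8, Parp14, Ifih1 and Eif2ak2. Lowered were Stat2, Rtp4, Dhx58 and Oas1g. The other 22, among them the ISG15 system, 5 of 6 OAS genes, Rsad2, Cmpk2 and Bst2, did not pass the threshold. The members nearest to the threshold were Mx2 and Oas1g inside it (edgeR adjusted p = 0.035 and 0.0364) and Cmpk2 and Oasl1 outside it (0.0663 and 0.118). The raised class had a median log2 fold change of 1.32 with R848 and 3.75 with LPS in WT, the lowered class -0.53 with R848 and 2.21 with LPS, and the third class -0.12 with R848 and 2.52 with LPS.

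The mice of the knockouts give the same measure in samples that the division did not use. How often all genes of these WT classes were called in the knockouts was not counted. The counts below therefore do not set the members apart from other genes. Of the 12 genes raised in WT, 11 were called higher in LynAKO, 11 in LynBKO and 10 in LynKO, and 10 in all 3 (all but Mx2 and Eif2ak2). Their medians were 1.27, 1.13 and 1.16 on the log2 scale. Of the 4 genes lowered in WT, 2 (Stat2 and Rtp4) were lower in each knockout, with class medians of -0.37, -0.36 and -0.35. Of the 22 others, 5 were called in LynAKO, 4 in LynBKO and 3 in LynKO. Most of these calls were lost in at least 1 run that left out 1 replicate number. Without LynAKO replicate 3, Oas2, Oas3, Oasl2 and Ifi35 lost theirs (edgeR adjusted p = 0.172, 0.152, 0.152 and 0.0907), as they did with all 48 libraries in 1 model. Without LynBKO replicate 3, Oas3, Oasl1 and Cmpk2 lost theirs (0.445, 0.744 and 0.213), and without LynBKO replicate 2 Ifi35 did (0.252). These LynBKO runs left out libraries by number, with an NT library of the other sex label, so they do not leave out 1 mouse. In LynKO, Oas2 lost its call without replicate 1, 3 or 4 (0.102, 0.0841 and 0.083). Oasl1 was the one gene of these 22 that was lower in all 3 knockouts. Its R848 libraries had 5.91, 5.16, 4.39 and 6.19 CPM in LynAKO, 8.58, 12.9, 6.33 and 10.1 in LynBKO and 8.22, 8.65, 6.56 and 10.4 in LynKO, against NT values of 7.92, 9.104, 6.68 and 10.4 CPM in LynAKO, 9.41, 10.9, 20.9 and 12.9 in LynBKO and 11.2, 15.1, 11.5 and 11.6 in LynKO. Its R848 and NT libraries overlapped in LynBKO and did not in LynAKO and LynKO. In LynBKO its call was lost without the NT 4 library (edgeR adjusted p = 0.0697), by DESeq2 (0.146) and with a block for the replicate number (0.0692), and was kept with that block and NT 2 and NT 3 exchanged.

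**Figure D3:**
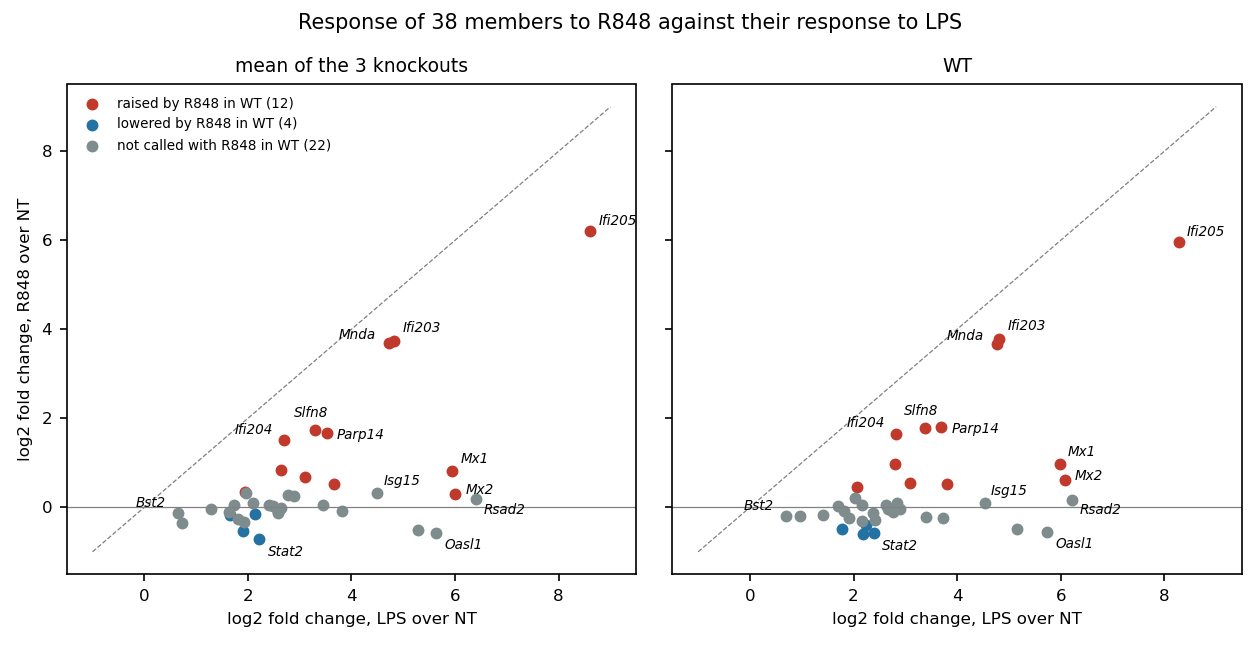
Log2 fold change of R848 over NT (vertical axis) against that of LPS over NT (horizontal axis) for 38 members, as the mean of the 3 knockouts (left) and in WT (right), coloured by class in WT, with a dashed line where both are equal. Every point lies below the dashed line, by 1.02 for Ifi203 and 1.10 for Mnda in WT, and Rsad2 and Oasl1 lie at 0.17 and -0.54 with R848 in WT.

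The raised genes were led by the HIN-200 family. Ifi205 had 21.7, 37.9, 35.1 and 36.4 CPM with R848 in LynAKO, 37.2, 48.8, 25.6 and 34.4 in LynBKO, 26.1, 27.1, 28.95 and 21.00 in LynKO and 22.7, 25.96, 38.96 and 36.3 in WT, and no NT library exceeded 1.15 CPM. The log2 fold change was 5.93 ± 0.35, 5.83 ± 0.28, 6.84 ± 0.34 and 5.96 ± 0.26 in that order. Mnda had 327, 348, 325 and 371 CPM with R848 in LynAKO, against 18.4, 30.5, 23.5 and 24.6 CPM in LynAKO NT. In LynBKO it had 373, 406, 326 and 359 CPM, against 22.6, 22.9, 44.00 and 36.4 CPM in NT. In LynKO it had 303, 289.7, 361 and 370.1 CPM, against 26.1, 29.8, 22.8 and 23.1 CPM in NT, and in WT 297, 311, 358 and 343 CPM, against the WT NT values above. No R848 library of Mnda came near an NT library. Ifi203 had log2 fold changes of 3.83 ± 0.14, 3.63 ± 0.11, 3.76 ± 0.18 and 3.79 ± 0.17 (edgeR adjusted p = 5.19e-13, 1.10e-14, 5.12e-11 and 1.91e-12). Ifi204 rose by 1.61, 1.46, 1.46 and 1.66, and Ifi209 by 0.70, 0.60, 0.72 and 0.56. The Ifi209 call was lost without replicate 2 in LynBKO (edgeR adjusted p = 0.287), without mouse 4 in WT (0.0777) and by DESeq2 in LynBKO (0.0632).

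Parp14 had 464, 464, 428 and 304 CPM with R848 in LynKO, against 148, 147, 116 and 111 CPM in LynKO NT, and 437, 488, 508 and 433 CPM in WT, against the WT NT values above. Slfn8 had 174, 255, 259 and 206 CPM with R848, against 66.6, 75.1, 60.5 and 62.4 CPM in WT NT. In LynAKO, LynBKO and LynKO its log2 fold changes were 1.80, 1.63 and 1.81 (edgeR adjusted p = 1.06e-09, 5.87e-10 and 7.71e-10). Mx1 with R848 had 14.2, 14.7, 18.3 and 25.4 CPM in WT, where its log2 fold change was 0.98 ± 0.22 against the 5.98 with LPS. Mx2 with R848 had 3.24, 6.38, 5.45 and 8.67 CPM in WT, a range that overlaps its NT values, and its WT call was lost without mouse 3 (edgeR adjusted p = 0.155), without mouse 4 (0.223) and by DESeq2 (0.0703). Ifih1 had 62.8, 61.6, 61.3 and 61.4 CPM with R848 in WT (0.52 ± 0.08; edgeR adjusted p = 2.23e-05). Slfn5 rose by 0.88, 0.80, 0.85 and 0.97 in LynAKO, LynBKO, LynKO and WT. Eif2ak2 passed in LynAKO, LynBKO and WT (0.45, 0.34 and 0.46), and had 0.23 in LynKO. Its call was lost without replicate 3 or 4 in LynAKO (edgeR adjusted p = 0.0835 and 0.0531) and without replicate 2 in LynBKO (0.0546), and that of Ifih1 in LynKO without replicate 3 (0.064).

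Of the lowered genes, Stat2 had the firmest values. With R848 it had 37.4, 52.1, 43.2 and 46.1 CPM in LynAKO, 47.3, 66.4, 46.9 and 58.2 in LynBKO, 54.6, 61.9, 51.7 and 41.6 in LynKO and 45.2, 53.03, 43.9 and 57.5 in WT. Without ligand it had 55.8, 82.5, 76.8 and 78.02 CPM in LynAKO, 80.8, 82.7, 111 and 98.6 in LynBKO, 85.98, 100.4, 77.4 and 70.3 in LynKO and the WT values given above. The R848 libraries were all below the NT libraries in the 3 knockouts, and overlapped with them in WT. The log2 fold changes were -0.70 ± 0.14, -0.77 ± 0.11, -0.69 ± 0.14 and -0.58 ± 0.14 (edgeR adjusted p = 0.000301, 1.46e-05, 0.000789 and 0.00152). Rtp4, which encodes a receptor chaperone, had 53.9, 80.5, 53.9 and 74.3 CPM with R848, against 127, 121, 64.4 and 93.3 CPM in WT NT, and fell by 0.50, 0.56, 0.56 and 0.60 on the log2 scale in LynAKO, LynBKO, LynKO and WT. Its WT call was lost without mouse 1 (edgeR adjusted p = 0.0721) and its LynBKO call without replicate 3 (also 0.0721). Oas1g had 10.5, 15.1, 10.2 and 15.5 CPM with R848 in WT, which overlaps its NT values, and its call was lost without mouse 1 (edgeR adjusted p = 0.228) and without mouse 2 (0.0569). Dhx58 passed in WT (-0.48 ± 0.14) and not in the knockouts, where it had -0.23, -0.16 and -0.15; the difference between genotypes was not called by the interaction test.

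Rsad2, Oasl1, Cmpk2 and Isg15 rose by 4.53 to 6.21 on the log2 scale with LPS in WT and did not pass with R848 in WT. Rsad2 had 13.2, 18.3, 24.5 and 33.7 CPM with R848 in WT, overlapping its NT libraries (0.17 ± 0.26; edgeR adjusted p = 0.591). Cmpk2 had 10.5, 13.9, 15.2 and 17.8 CPM and Oasl1 4.71, 5.89, 6.94 and 6.43 CPM with R848 in WT, with log2 fold changes of -0.48 ± 0.21 and -0.54 ± 0.29. Isg15 had 12.8, 15.04, 13.5 and 22.4 CPM with R848 in WT and 20.2, 26.1, 14.5 and 19.4 CPM in LynKO, against 12.2, 17.5, 10.5 and 12.6 CPM in LynKO NT, which overlap. It passed in LynKO (0.59 ± 0.19; edgeR adjusted p = 0.0177), a call lost without LynKO mouse 1 (0.0525). Usp18, Zbp1 and Bst2 had 10.8, 14.2, 10.8 and 15.5 CPM, 11.4, 16.02, 10.3 and 18.4 CPM and 137, 140.1, 86.5 and 163 CPM with R848 in WT, each overlapping its NT values. A value below the threshold does not show that a gene was unchanged. With the replicate number as a block, 25 members passed in LynAKO, 15 in LynBKO, 19 in LynKO and 18 in WT, against 18, 17, 15 and 16 without it. Over all genes 63.9%, 63.0%, 61.1% and 59.9% passed with the block. In LynBKO the sexes of NT 2 and NT 3 go against those of the other libraries with these numbers, and with the pair exchanged 18 members passed (64.5% of all genes). Among the added calls in LynAKO were Rsad2 (log2 fold change 0.34) and Mx2 (0.45) as higher, and Dhx58 (-0.23), Oas1g (-0.25), Cmpk2 (-0.44) and Bst2 (-0.19) as lower. In LynKO the block added Oas3, Oasl2 and Cmpk2 as lower and Zbp1 as higher, in WT it added Oas2 and Oasl2 as lower, and in LynBKO it took away Oasl1 and Ifi35 as numbered, whereas with NT 2 and NT 3 exchanged it added Oasl2 as lower (-0.35) and took away none. With the NT 4 libraries of LynBKO and LynKO left out, 15 members passed in LynBKO (Oas3 and Oasl1 were lost) and 14 in LynKO (Oas2 was lost). All 38 members were still higher with LPS than NT in both genotypes. The shares of all genes called without these libraries are not given here, so these counts describe the setting and do not set the members apart.

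Set against each other, LPS gave higher levels than R848 for all 38 members in LynAKO, LynBKO, LynKO and WT (edgeR adjusted p under 0.05), against 9.7%, 14.2%, 9.73% and 10.9% of all genes. The libraries did not overlap for any of the 38 in the 4 genotypes, against 19.8%, 25.3%, 17.3% and 21.8% of all genes. The median log2 difference was 2.502, 2.23, 2.30 and 2.51, against -0.03, -0.00, -0.02 and -0.03 over all genes. By role in WT, the median was 1.17 for the HIN-200 family, 2.18 for the sensors and PKR, 2.32 for the OAS family, 2.35 for the effectors, 2.64 for the signalling and other genes, 3.98 for the ISG15 system and 5.23 for the Mx genes. Ifi203 and Mnda, with 374, 397, 486 and 447 CPM and 328 CPM on average with R848, differed by 1.02 ± 0.15 and 1.10 ± 0.14 on the log2 scale. Oasl1 and Rsad2 differed by 6.28 ± 0.30 and 6.04 ± 0.30. These comparisons share their LPS and R848 libraries with those against NT.

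Genes that carry the interferon signal were examined as a list of 24, of which Ifna4 had no count and 23 were tested. With LPS, 18 were higher and 3 lower in LynAKO, 18 and 4 in LynBKO, 18 and 3 in LynKO, and 18 and 3 in WT. With R848, 13 were higher and 4 lower in LynAKO, 15 and 4 in LynBKO, 12 and 4 in LynKO, and 15 and 5 in WT (edgeR adjusted p under 0.05). Over all genes, 30.4%, 33.9%, 31.0% and 31.5% were higher with LPS in LynAKO, LynBKO, LynKO and WT. With R848, 29.0%, 31.3%, 28.4% and 30.0% were higher and 26.9%, 32.2%, 27.0% and 26.7% lower, in the same order. The share of all genes lower with LPS is not given here, so the counts lower with LPS do not set this list apart from other genes. Ifnb1, the interferon beta gene, had 0.547, 0.465, 0.572 and 1.57 CPM in the WT LPS libraries and 0.0612, 0.0614, 0 and 0.145 CPM in the WT R848 libraries, and no count in WT NT, so these levels rest on few counts. Socs1, a feedback inhibitor of the interferon receptor, averaged 70.3 ± 13.9 CPM with LPS, 10.9 ± 2.700 with R848 and 0.547 ± 0.2699 CPM in WT NT (SD, n = 4 each). Irf1 rose with both ligands, by 3.75 with LPS and 1.59 with R848 in WT.

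Irf9, which binds DNA in the same complex as Stat2, rose with LPS by 1.07 ± 0.07 in WT and was lower with R848 (-0.20 ± 0.08; edgeR adjusted p = 0.0313). Irf7, the regulator that amplifies interferon transcription, rose by 2.07 ± 0.24 with LPS and had -0.46 ± 0.24 with R848 (edgeR adjusted p = 0.106). The RNA-sensing receptor gene Tlr3 rose with LPS (0.89) and fell with R848 by 0.64. Kinases upstream rose with both ligands: Ikbke by 2.78 with LPS and 2.72 with R848, and Tbk1 by 1.14 and 1.08. The receptor subunit genes Ifnar1 and Ifnar2 also rose with both, and Mavs, the adaptor of the RIG-I-like receptors, fell by 1.54 with LPS and by 1.42 with R848.

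Between LynKO and WT, 1 member differed past the threshold. That gene was Slfn1 in LynKO with LPS (ENSMUSG00000078763, chromosome 11, 83116849 to 83122670, plus strand), a Schlafen gene first described in T cell growth control. It had 42.5, 34.6, 30.3 and 38.6 CPM in LynKO with LPS, against 18.9, 20.6, 12.2 and 14.4 CPM in WT with LPS, and every LynKO library was above every WT library. The log2 fold change was 1.16 ± 0.17 (edgeR adjusted p = 0.000333), and over 15 other settings it ran from 1.04 to 1.29 with adjusted p from 2.86e-20 to 0.0193. In LynAKO with LPS it had 27.2, 28.6, 22.1 and 25.1 CPM and in LynBKO 24.9, 34.01, 18.6 and 20.2 CPM, above WT by 0.64 and 0.56 on the log2 scale without passing (edgeR adjusted p = 0.756 and 0.56). With R848 it had 2.605, 4.75, 1.42 and 6.56 CPM in LynKO, against 0.795, 1.47, 1.42 and 1.73 CPM in WT, with overlap (2.83-fold higher in LynKO; edgeR adjusted p = 0.0899; DESeq2 0.0419). Without ligand it averaged 2.66 ± 1.04 CPM in LynKO and 1.61 ± 0.993 CPM in WT (SD, n = 4 each). The macrophage markers summed to 20663 to 24178 CPM in LynKO with LPS, against 31227 to 37169 CPM in WT with LPS. The groups did not overlap with R848 or without ligand either. Most of this sum is Lyz2, which had 13042 to 35954 CPM over all libraries. The other macrophage markers are not given by group here. The neutrophil markers summed to 7.22 to 11.5 CPM in LynKO with LPS, against 11.6 to 17.8 CPM in WT, and the B cell markers to 0.897 to 1.87 CPM in LynKO, against 0.429 to 0.981 CPM in WT. Their part in the result was not tested.

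In LynKO against WT, 8.49% of all genes were called with LPS, 5.93% with R848 and 9.92% without ligand, against 1, 0 and 0 of the 38 members by edgeR. By DESeq2 the member counts were 1, 2 and 1, against 13.4%, 9.74% and 12.4% of all genes. An unadjusted p under 0.05 was reached by 5, 9 and 4 members, against 23.6%, 20.7% and 22.9% of all genes. The median member difference was -0.04, 0.12 and 0.08 on the log2 scale, and leaving out 1 replicate moved it between -0.16 and 0.08, between 0.03 and 0.20, and between -0.02 and 0.16, so it had no firm sign with LPS or without ligand. Same-numbered LynKO and WT libraries deviated together with LPS and with R848, and with the replicate number as a block 2 members passed with LPS (Slfn1 and Ifi44) and 8 with R848 (Oas1g, Oasl2, Dhx58, Zbp1, Ifi209, Slfn1, Ifi44 and Rtp4), all higher in LynKO, against 12.1% and 12.5% of all genes with the block. Of these, Ifi209 had 54.2, 67.5, 54.3 and 43.1 CPM in LynKO with R848, against 31.6, 38.6, 35.1 and 41.9 CPM in WT (0.57 ± 0.17; edgeR adjusted p = 0.0528, and 0.00735 with the block). Ifi44 had 6.66, 8.196, 5.69 and 5.38 CPM in LynKO with R848, against 2.63, 4.42, 2.48 and 5.203 CPM in WT, and the libraries of these groups did not overlap for Ifi209, Ifi44 and Oas1g, 3 of 38 members, against 12.2% of all genes. Without ligand, Tor3a had 47.2, 47.6, 45.9 and 40.98 CPM in LynKO, against 60.7, 64.8, 45.8 and 54.3 CPM in WT (-0.30 ± 0.10; edgeR adjusted p = 0.0631; DESeq2 0.0364). Of the interferon pathway list, Irf1 was lower in LynKO than in WT with all 3 treatments (log2 fold change -0.42 with LPS, -0.37 with R848 and -0.29 without ligand), Tlr7 with R848 and without ligand (-0.64 and -0.45), and Mavs was higher with LPS (0.42).

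In the single isoform knockouts no member was called by edgeR against WT with any treatment, nor between LynAKO and LynBKO, and few genes were called at all. The share of all genes called was 0.0215%, 0.00715% and 0.0286% in LynAKO with LPS, with R848 and without ligand, 0.0358%, 0.0% and 0.0644% in LynBKO, and 0.0% between LynAKO and LynBKO with each treatment. In LynBKO, 37 of 38 members were above WT without ligand, with a median of 0.27 on the log2 scale, and 37 of 38 with R848, with a median of 0.27, against 0.01 and -0.01 over all genes. An unadjusted p under 0.05 was reached by 14 members without ligand and 11 with R848, against 13.2% and 4.55% of all genes. DESeq2 called 1 in each (Ddx60 and Ifi44), against 0.887% and 0.0962% of all genes. With LPS the LynBKO median was 0.08, with 4 members at an unadjusted p under 0.05 (5.43% of all genes) and 0 by DESeq2. In LynAKO the medians were 0.11, 0.05 and 0.02 with LPS, with R848 and without ligand, with 2, 1 and 0 members at an unadjusted p under 0.05 (5.34%, 3.2% and 4.8% of all genes) and 0 by DESeq2. The last 2 of these medians changed sign when 1 replicate was left out (-0.04 to 0.11 and -0.12 to 0.08). Between LynAKO and LynBKO, 0 members were called by edgeR or DESeq2, with 0, 6 and 14 at an unadjusted p under 0.05 (2.52%, 3.18% and 8.39% of all genes) and medians of 0.00, -0.27 and -0.29 with LPS, with R848 and without ligand. Without LynBKO replicate 2 the R848 median was -0.13, and without LynBKO replicate 3 the median without ligand was -0.16. Without the LynBKO NT 4 library the median without ligand was -0.26. The comparisons with WT share their WT libraries, and within a comparison the members rise and fall together by library, so a count of members on one side of 0 is not a count of independent results.

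Without ligand, Ddx60 had 15.5, 16.03, 21.03 and 20.3 CPM in LynBKO, against 10.6, 14.5, 10.8 and 12.3 CPM in WT, and the 2 groups did not overlap (0.59 ± 0.15; edgeR adjusted p = 0.151; DESeq2 0.0279). With R848, Ifi44, a gene named for its induction by interferon, had 4.69, 12.9, 6.33 and 10.7 CPM in LynBKO, against the WT values above (1.23 ± 0.29; edgeR adjusted p = 0.364; DESeq2 0.0405). Zbp1 had 19.6, 31.9, 18.5 and 25.1 CPM in LynBKO with R848, and Ifi209 had 42.9, 81.7, 45.3 and 52.7 CPM, each without overlap with WT. The groups did not overlap for 1 member without ligand and 3 with R848, against 8.23% and 3.13% of all genes. Without the LynBKO NT 4 library the median difference without ligand was 0.27, and without the LynKO NT 4 library no member was called in LynKO either. Leaving out WT replicate 3 or LynBKO replicate 3 lowered it to 0.17 and 0.18, with 32 of 38 members above 0, and leaving out LynBKO replicate 2 lowered the R848 median to 0.16.

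**Figure D4:**
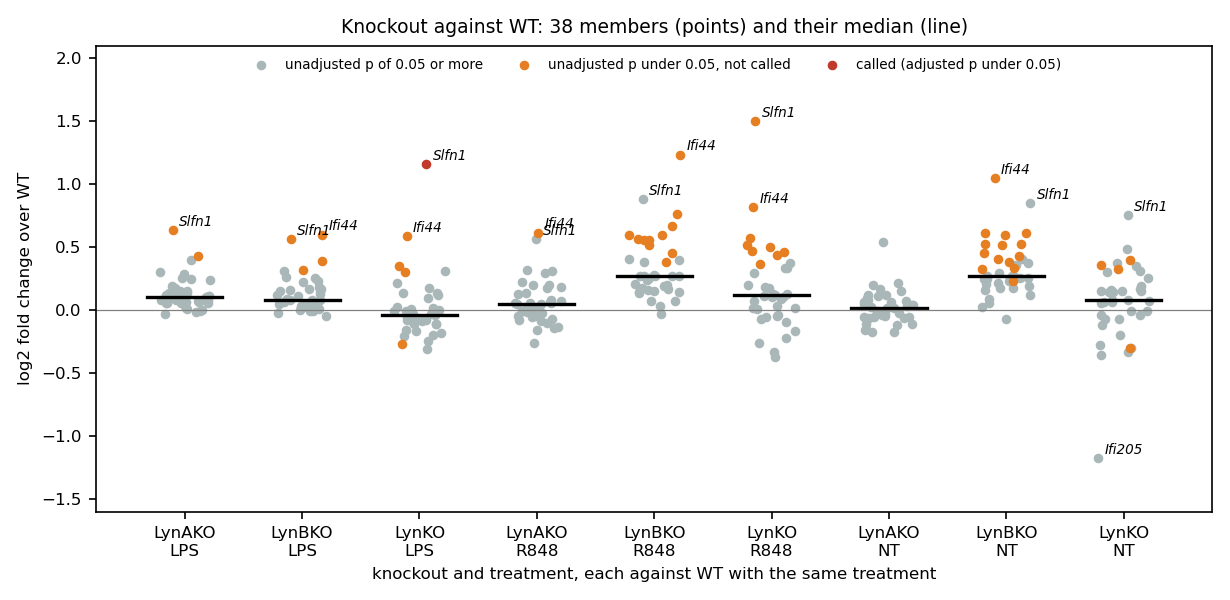
Log2 fold change of 38 members (points, spread sideways for visibility) in LynAKO, LynBKO and LynKO, each over WT with the same treatment, with the member median as a black line, and colour for unadjusted p under 0.05 and for calls. The medians of LynBKO with R848 and NT lie at 0.27, and Slfn1 in LynKO with LPS is the one member called.

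The responses themselves did not differ between genotypes past the threshold. Of the 38 members, 0 had a called difference in the LPS response or in the R848 response of LynAKO, LynBKO or LynKO from that of WT by edgeR or DESeq2, and 0 reached an unadjusted p under 0.05 in any of these 6 comparisons, where 2.62%, 3.27% and 7.6% of all genes did for the LPS response and 2.35%, 3.07% and 9.02% for the R848 response. Over all genes, 0.1% were called for the LPS response and 0.193% for the R848 response of LynKO, and 0.0% in the other 4. The median difference of the members was 0.10, -0.19 and -0.08 for the LPS response of LynAKO, LynBKO and LynKO, and 0.03, -0.00 and 0.06 for the R848 response, on the log2 scale. These medians had no firm size. Without LynBKO replicate 3 the -0.19 was -0.00, without WT replicate 2 the 0.10 was -0.00, and without LynKO replicate 2 the -0.08 was 0.02. The LynBKO run went by number, and its NT library has the other sex label than its LPS and R848 libraries. Without the NT 4 libraries of LynBKO and LynKO, the LPS medians of these genotypes were -0.19 and -0.15. The R848 medians changed sign in each knockout when 1 replicate was left out. For Rsad2 the LPS response differed from WT by 0.46 ± 0.36, -0.10 ± 0.35 and 0.26 ± 0.36 (SE), and for Mnda the R848 response differed by 0.18 ± 0.22, -0.10 ± 0.22 and 0.06 ± 0.22. These standard errors come from the model without a block for the replicate number, and give the precision of that model with 4 mice per group.

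Within a group, the members deviated together from library to library. In LynAKO, 37, 36 and 36 of 38 members were above their group mean in the LPS, R848 and NT libraries of mouse 2, with median deviations of 0.29, 0.23 and 0.24 on the log2 scale, and 1, 4 and 2 in those of mouse 1 (-0.25, -0.16 and -0.22). In LynKO the libraries of mouse 4 were low with all 3 treatments, at -0.39, -0.23 and -0.19. In WT the NT library of mouse 3 was the lowest of the 48, at -0.47 with 0 members above the group mean, and its LPS and R848 libraries were at -0.19 and -0.10. In LynBKO the NT 3 library was high (0.36, with 38 of 38 members above the mean) while the LPS 3 and R848 3 libraries were low (-0.16 and -0.23), and the R848 2 library was high (0.31). These are descriptions of libraries.

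**Figure D5:**
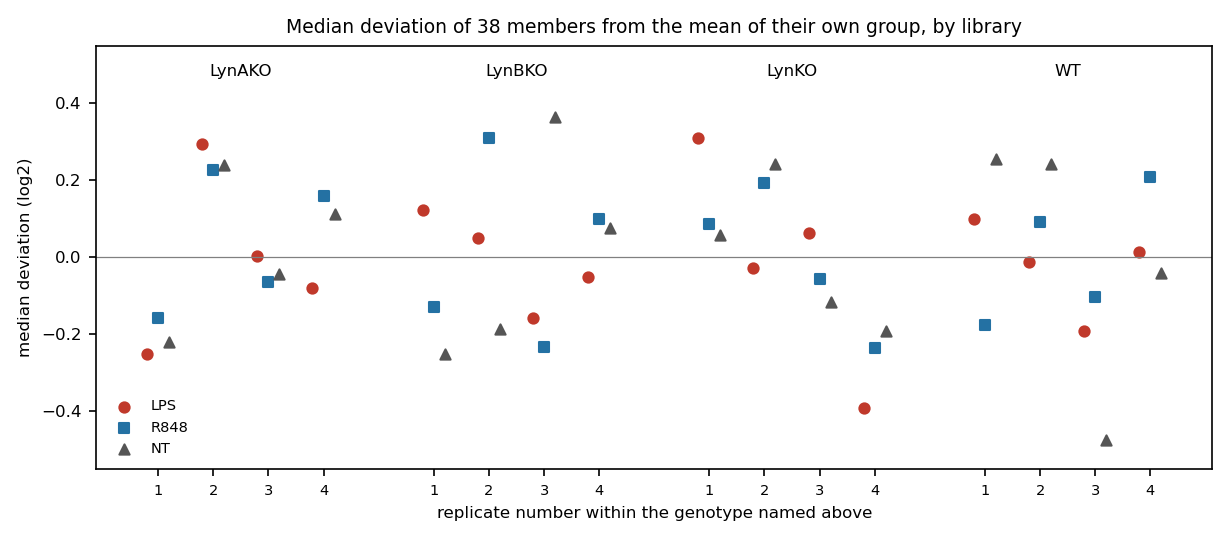
Median deviation (log2) of 38 members from the mean of their own group in each of the 48 libraries, by genotype and replicate number, with LPS as circles, R848 as squares and NT as triangles. The 3 libraries of LynAKO 2 lie above 0 and those of LynAKO 1 and LynKO 4 below it, while LynBKO NT 3 and WT NT 3 stand at 0.36 and -0.47.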

How the data were processed

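Gene expression was measured by RNA sequencing in 48 libraries of mouse macrophages, in 12 groups of 4. The authors deposited a table of raw read counts per gene and a table of variance-stabilised values on a log2 scale, which was used here for gene names alone. Per the submitters' processing notes, the tools were Trimmomatic 0.36, STAR 2.5.2b, Subread 1.5.2 with featureCounts and DESeq2, with the build GRCm38. The sources used here do not give strand settings or the annotation release.

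Counts were tested with edgeR 4.0.16 (limma 3.58.1, R 4.3.3): TMM scaling, a filter on low counts (filterByExpr, minimum count 10 and minimum total 15, which kept 13986 genes), and the quasi-likelihood test, with Benjamini-Hochberg adjustment over all genes kept and a threshold of 0.05. The calculation was tested on simulated data. Total counts were 14974764 to 23321447 per library, so values under 1 CPM rest on few counts. Alternatives were DESeq2 1.42.0, RLE size factors, no filter, a 2-fold rule, the 2 groups alone, all 48 libraries in 1 model, a block for the replicate number, a covariate for sex, and leaving out each replicate in turn or the NT 4 libraries of LynBKO and LynKO.

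Between treatments, a number is taken to mark 1 mouse. Same-numbered libraries shared a sex label and deviated together in LynAKO, LynKO and WT (0.115 to 0.247 for R848 and NT in WT). Same-numbered LynKO and WT libraries with R848, which are of different mice, did so too (0.15 to 0.313). Neither observation can therefore show that a number marks 1 mouse. In LynBKO the sex labels go against it for NT 2 and NT 3, whose sexes are exchanged. Their deviations correlated negatively with those of the LPS and R848 libraries of the same number (-0.13 to -0.21). The LynBKO block was therefore also run with the pair exchanged. Runs across treatments that left out LynBKO replicate 2 or 3 went by number, and so did not leave out 1 mouse. Between genotypes, same-numbered libraries deviated together in every pair (correlation over 0.1) for LynBKO and WT with LPS (0.112 to 0.248), LynKO and WT with LPS (0.107 to 0.153) and LynKO and WT with R848 (0.15 to 0.313).

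The members and lists were chosen with earlier results of these data known. All members may be named. Values per library are given for up to 3 genes per role and comparison with the largest change, and for genes called between genotypes. Ddx60, Ifi44, Tor3a, Zbp1 and Ifi209 between genotypes, and other members printed per library beyond that rule, were chosen after their values were seen. One gene of the interferon pathway list is counted with it and is not reported by name here.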

Additional observations from a re-analysis of the deposited data

Results flagged for a closer look

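The values of 94 gene and group combinations printed per library were examined for 1 library apart from the other 3, and 3 were found, where chance gives about 1 in 20. Oasl1 in LynKO NT had 15.1 CPM in replicate 2, against 11.2 to 11.6 CPM in the other 3. Ifih1 in WT with R848 had 62.8 CPM in replicate 1, against 61.3 to 61.6 CPM in the other 3, a small difference among close values. Ifi205 in LynAKO with R848 had 21.7 CPM in replicate 1, against 35.1 to 37.9 CPM in the other 3. No member's response differed between genotypes by the interaction test (edgeR 0 called, 0 at an unadjusted p under 0.05, DESeq2 0).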

How the results depend on the processing

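No member called in a comparison was called in the opposite direction under an alternative run. The median member differences between genotypes were less firm: leaving out 1 replicate gave -0.16 to 0.08 (LynKO against WT, LPS), -0.02 to 0.16 (LynKO, NT), -0.12 to 0.08 (LynAKO, NT), -0.04 to 0.11 (LynAKO, R848) and -0.09 to 0.08 (LynAKO against LynBKO, LPS). The median R848 responses relative to WT ran from -0.07 to 0.15 in LynAKO, from -0.23 to 0.22 in LynBKO and from -0.06 to 0.19 in LynKO. With a 2-fold rule, 6 members were called with R848 against NT in each genotype. Between genotypes, where edgeR called 1 member in 1 of 12 comparisons, omitting the filter on low counts gave 15 (LynBKO against WT, NT), 6 (LynKO, NT), 15 (LynAKO against LynBKO, NT), 2, 4 and 6 (LynAKO, LynBKO and LynKO against WT, LPS), 7 and 9 (LynBKO and LynKO, R848), 1 (LynAKO against LynBKO, R848) and 1 for the R848 response of LynKO minus WT. DESeq2 gave 1 (LynBKO, NT), 1 (LynKO, NT), 1 (LynBKO, R848) and 2 (LynKO, R848). The replicate block gave 2 (LynKO, LPS), 2 (LynBKO, R848) and 8 (LynKO, R848). Same-numbered LynBKO and WT libraries with R848 are of different mice with the same sex label, and their deviations correlated by 0.0279 to 0.327. Sex as a covariate gave 1 (LynKO, NT) and 1 (LynKO, R848), the 2 groups alone 1 and all 48 libraries in 1 model 2 (LynKO, R848). The cause was not tested. Apart from DESeq2 and the LynKO block, the shares of all genes called in these runs are not given here. The member counts therefore describe the settings and are not read as results about the members. The block as numbered in LynBKO pairs NT 2 and NT 3 with libraries of the other sex; exchanging them left 38 called with LPS and gave 18 with R848. The block changed no other count by over 1.5 times. Leaving out 1 replicate at a time gave 0 to 2 (LynKO, NT), 1 to 3 (LynKO, LPS) and 0 to 1 (LynKO, R848), 37 to 38 for LPS against NT or R848, and, for R848 against NT, 13 to 19 in LynAKO, 14 to 18 in LynBKO, 13 to 18 in LynKO and 15 to 19 in WT. The call lost for LPS was Oas3 without LynKO replicate 3 (edgeR adjusted p = 0.0592). Genes under 1 CPM, such as Ifnb1 and Ifi205 without ligand, are limited by depth.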
